A study of Mus musculus with 14 samples.

Results

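Mouse genes named Zfp followed by a number mostly encode proteins with a row of C2H2 zinc fingers, and 311 of them were the nearest gene to at least 1 open chromatin site in mouse blood progenitors. The sites were taken from a merged list of 92842 ATAC-seq peaks, by choosing every peak whose nearest gene bore the letters Zfp followed only by digits. Zfp36, an RNA-binding protein of another finger type, and Zfp608 were left out by this rule. The result was 1015 peaks, 1.09% of the list, at 311 of 19105 genes. ATAC-seq uses the Tn5 transposase to cut and tag open DNA. The study sorted 7 cell types with 2 libraries each from wild-type C57BL/6 mice aged 8 to 12 weeks: MPP (multipotent), CMP (common myeloid), CLP (common lymphoid), GMP (granulocyte/macrophage), MEP (megakaryocyte and erythroid) and ProB (B cell) progenitors from bone marrow, and ProT (T cell) progenitors from thymus. No group carried a mutation or a treatment, and the labels do not say whether libraries were made from pooled animals. The list joins all 14 libraries and gives no value per library or cell type. The level of a peak, its spread over replicates and its cell type were therefore not analysed here, and the purity of the sorts could not be checked from this list. What could be compared is how many peaks a gene had and where they lay.

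A C2H2 finger is a small fold held by a zinc ion, and successive fingers read successive short stretches of DNA. Many Zfp proteins also carry a KRAB domain, which recruits the corepressor TRIM28 (KAP1) and the histone methyltransferase SETDB1, and these proteins silence retroelements and guard imprinted loci. KRAB zinc finger genes arose by repeated tandem duplication and stand in clusters on a few chromosomes. Zfp genes without a KRAB box include developmental regulators and cofactors, among them Zfp521 and Zfp423 with their roles in blood and fat cells.

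A peak was counted as a promoter peak when its centre lay within 1 kb of the transcription start site (TSS) that the list gives as nearest, and as distal otherwise. A gene was promoter-only when all its peaks were promoter peaks, and distal-rich when it had at least 5 distal peaks. The following 200 bases before the start are shown because a peak of the list lies at or close to each of these starts, and because they set distal-rich genes (Zfp217 to Zfp386) beside promoter-only genes (Zfp367 to Zfp526) and show how alike the promoters of duplicated genes can be (Zfp758 and Zfp943). Sequences are from RefSeq on GRCm38.p6, 5' to 3' on the strand of the gene. Capitals mark the SP/KLF box GGGCGG, the CCAAT box and the ETS core CCGGAAG on either strand, and where copies touch or overlap they form a single run.

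Zfp217 (chr2:170131221-170131420, minus strand): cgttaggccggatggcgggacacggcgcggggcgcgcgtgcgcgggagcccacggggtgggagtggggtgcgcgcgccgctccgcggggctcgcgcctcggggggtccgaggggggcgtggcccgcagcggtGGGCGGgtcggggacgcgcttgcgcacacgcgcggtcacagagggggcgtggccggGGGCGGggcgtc
Zfp619 (chr7:39517566-39517765, plus strand): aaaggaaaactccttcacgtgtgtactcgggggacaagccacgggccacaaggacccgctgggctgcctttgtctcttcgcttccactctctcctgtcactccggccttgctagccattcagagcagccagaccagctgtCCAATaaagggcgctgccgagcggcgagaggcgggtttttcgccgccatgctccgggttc
Zfp644 (chr5:106696831-106697030, minus strand): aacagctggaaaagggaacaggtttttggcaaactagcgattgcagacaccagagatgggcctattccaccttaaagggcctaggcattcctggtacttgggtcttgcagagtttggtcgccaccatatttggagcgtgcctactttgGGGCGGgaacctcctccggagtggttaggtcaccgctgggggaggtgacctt
Zfp386 (chr12:116047524-116047723, plus strand): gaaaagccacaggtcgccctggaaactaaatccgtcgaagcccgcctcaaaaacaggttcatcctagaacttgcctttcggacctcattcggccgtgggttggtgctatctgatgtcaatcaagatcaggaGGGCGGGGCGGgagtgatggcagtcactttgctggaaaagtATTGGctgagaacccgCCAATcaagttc
Zfp367 (chr13:64153200-64153399, minus strand): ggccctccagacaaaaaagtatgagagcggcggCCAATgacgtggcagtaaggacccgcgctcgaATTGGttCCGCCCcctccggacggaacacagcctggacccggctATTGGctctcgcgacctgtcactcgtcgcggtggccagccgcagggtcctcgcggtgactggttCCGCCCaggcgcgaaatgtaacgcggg
Zfp456 (chr13:67375764-67375963, minus strand): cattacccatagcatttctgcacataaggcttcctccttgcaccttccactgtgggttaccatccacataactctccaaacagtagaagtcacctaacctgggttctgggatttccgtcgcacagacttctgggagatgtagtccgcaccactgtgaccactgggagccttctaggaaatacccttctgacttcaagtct
Zfp444 (chr7:6172313-6172512, plus strand): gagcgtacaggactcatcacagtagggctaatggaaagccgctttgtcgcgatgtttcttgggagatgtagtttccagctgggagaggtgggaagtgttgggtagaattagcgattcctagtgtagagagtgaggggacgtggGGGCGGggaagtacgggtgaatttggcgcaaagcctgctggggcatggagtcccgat
Zfp526 (chr7:25221225-25221424, plus strand): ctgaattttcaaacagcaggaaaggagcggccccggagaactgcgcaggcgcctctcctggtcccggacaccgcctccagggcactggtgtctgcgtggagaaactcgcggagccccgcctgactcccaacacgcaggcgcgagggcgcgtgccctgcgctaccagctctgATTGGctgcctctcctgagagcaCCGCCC
Zfp758 (chr17:22361263-22361462, plus strand): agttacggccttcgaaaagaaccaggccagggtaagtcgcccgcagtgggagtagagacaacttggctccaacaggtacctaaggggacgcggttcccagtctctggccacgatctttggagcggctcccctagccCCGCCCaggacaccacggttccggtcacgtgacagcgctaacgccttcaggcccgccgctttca
Zfp943 (chr17:21962359-21962558, plus strand): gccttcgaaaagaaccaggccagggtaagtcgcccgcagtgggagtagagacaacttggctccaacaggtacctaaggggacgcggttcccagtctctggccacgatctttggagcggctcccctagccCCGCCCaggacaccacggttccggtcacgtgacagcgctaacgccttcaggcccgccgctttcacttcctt

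Zfp217 has more than 1 listed start, and the start shown is the inner one, whose peak centre lay 107 bp away. At the outer of its 2 listed starts, which RefSeq also lists, the closest peak centre was 5263 bp away. The RefSeq gene reaches farther out, to a 5' end at chr2:170151677. A peak (chr2:170151420-170151918) overlaps that end and was counted as distal, 8994 bp upstream of a listed start. The peak at Zfp456 was centred 1 bp from the start, that at Zfp526 25 bp and that at Zfp386 34 bp. Zfp758 and Zfp943 share an unbroken run of 193 of the 200 bases shown. The stretch before the inner Zfp217 start was 83.0% G and C, and that of Zfp456 49.5%.

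Zfp genes had fewer peaks than other genes, and more of these peaks lay at the promoter. The median Zfp gene had 2 peaks and a mean of 3.26 ± 3.81 (SD over 311 genes), while the 18794 other genes with a peak had a median of 3 and a mean of 4.89 ± 5.35 (SD over genes). A single peak was present at 119 of the 311 Zfp genes (38.3%), against 23.2% of the other genes. At the other end, 20 Zfp genes (6.43%) had 10 or more peaks, against 12.7%. Of the Zfp peaks, 309 lay within 1 kb of a TSS, or 30.4% (exact 95% interval 27.6 to 33.4), against 16.0% of the peaks of other genes (15.8 to 16.2). The intervals, here and below, are Clopper-Pearson intervals that cover counting error only and treat neighbouring peaks as independent, and the differences were not tested.

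**Figure D1:**
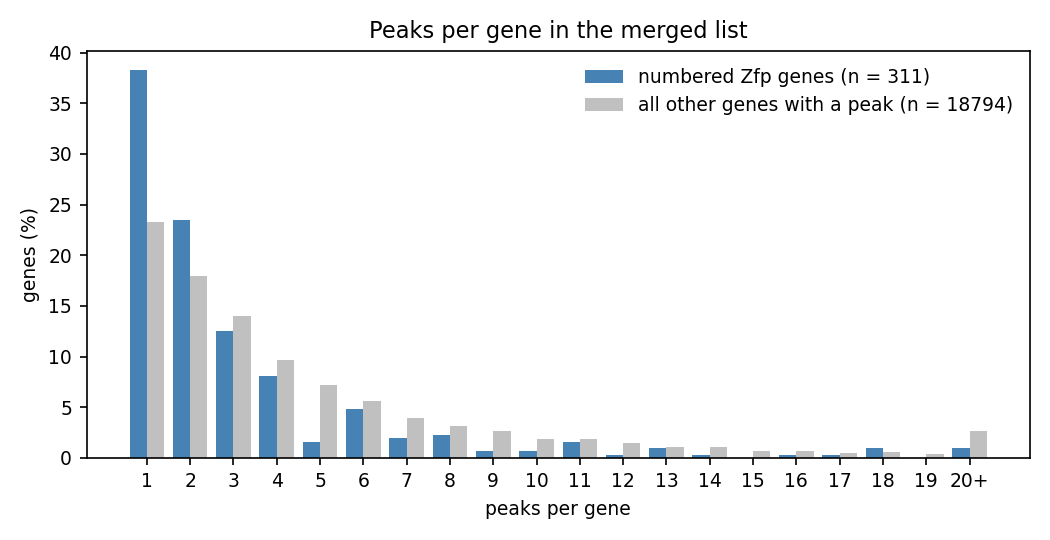
Share of genes (%) by the number of peaks per gene, for 311 numbered Zfp genes (blue) and 18794 other genes with a peak (grey). The blue bar at 1 peak stands at 38.3% and the grey bar at 23.2%, and the order is turned round from 3 peaks on for most counts.

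A promoter peak was present at 286 of the 311 Zfp genes (92.0%, 88.4 to 94.7) and at 67.6% of the other genes (67.0 to 68.3). Promoter-only genes numbered 116, or 37.3% (31.9 to 42.9), against 13.9% of the other genes (13.4 to 14.4). Of these, 112 had a single peak. Mixed genes, with peaks of both kinds, numbered 170 (54.7%, against 53.7%). Genes with distal peaks only numbered 25 (8.04%, against 32.4%). Distal-rich genes numbered 46, or 14.8% (11.0 to 19.2), against 29.2% of the other genes. Together they held 483 of the 1015 peaks (47.6%), while the distal-rich genes among the others held 65.1% of the peaks of those genes. The threshold of 5 cut through a continuous range: 12 Zfp genes had exactly 5 distal peaks, among them Zfp335, Zfp592 and Zfp90, and 10 had 4, among them Zfp318, Zfp330 and Zfp219.

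Because only genes with a peak can appear in the list, the coding Zfp genes of RefSeq were counted as well. Of 365 such genes, 320 (87.7%, 83.9 to 90.9) had a peak, against 75.2% of 21887 coding genes. A promoter peak was found at 292 of the 365 (80.0%), against 55.5%. For the 304 with a promoter sequence, the window from 250 bases before to 50 after a start was overlapped by a peak of any gene in 79.6% (74.6 to 84.0), against 56.7% of 17492 coding genes. The excess of promoter peaks was therefore present with and without the condition of having a peak. Of the 320, 13 stand in the list under another name and are not among the 311, such as Zfp984, listed as Gm13157 with 4 peaks.

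The 45 coding Zfp genes with no peak of their own stood on 14 chromosomes, in unequal shares. Chromosome 4 had 12 without a peak of its 27 coding Zfp genes and chromosome 2 had 7 of 24, while chromosome 7 had 7 of 89 and chromosome 13 had 1 of 32. The cluster of 3 genes from Zfp992 to Zfp993 on chromosome 4 had no peak at all, and the nearby cluster of 9 genes from Zfp978 to Zfp933 had a peak at 5 genes and a promoter peak at 2. Zfp42 (Rex1), a marker of pluripotent stem cells, had no peak, and neither did Zfp352. For 7 of the 40 such genes with a known promoter window, a peak lay in the window but was listed under a neighbour, as at Zfp27, Zfp146, Zfp511 and Zfp830. How reads that match several copies of a duplicated gene were treated is not given in the sources used here, and its part in the absence of peaks was not tested.

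Zfp genes in tandem clusters and those alone or in pairs differed in where their peaks lay. Coding Zfp genes were counted as a cluster where at least 3 stood with gaps of no more than 100 kb between them, which gave 29 clusters with 166 genes. Only numbered Zfp names were counted. A gene called alone or in a pair may therefore have zinc finger genes of other names beside it. Of the 307 list members that could be placed, 138 stood in a cluster. Among these, 73 were promoter-only (52.9%, 44.2 to 61.4) and 2 were distal-rich (1.45%, 0.176 to 5.14). Among the 169 that stood alone or in pairs, 41 were promoter-only (24.3%, 18 to 31.4) and 43 distal-rich (25.4%, 19.1 to 32.7). Promoter peaks made up 56.6% of the 249 peaks of cluster genes and 21.7% of the 755 peaks of the others. Genes without any promoter peak were 3 of the 138 and 22 of the 169.

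**Figure D2:**
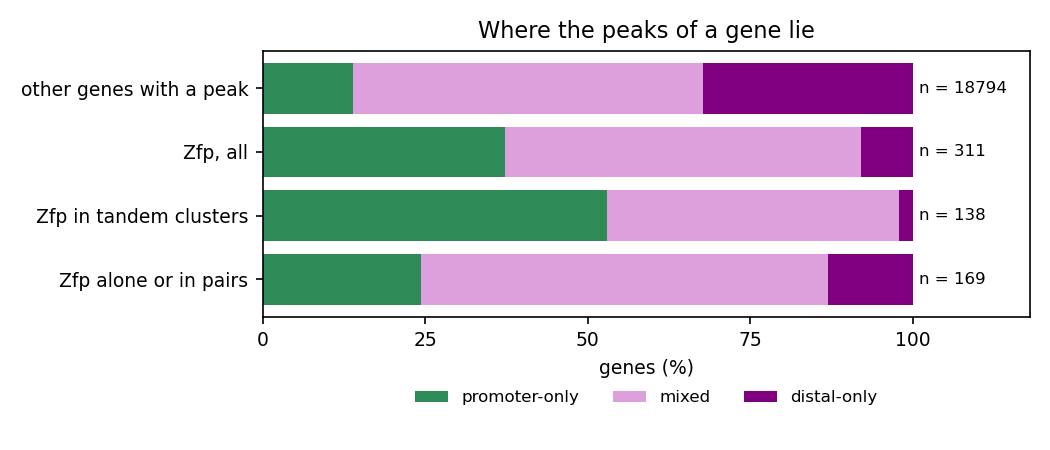
Share of genes (%) that were promoter-only (green), mixed (light purple) or distal-only (dark purple), among other genes with a peak, all Zfp genes, Zfp genes in tandem clusters and Zfp genes alone or in pairs. The green part covers 13.9%, 37.3%, 52.9% and 24.3% in that order.

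The cluster from Zfp712 to Zfp748 on chromosome 13 was the clearest case. It spans 0.515 Mb (chr13:67038594-67553152), and all its 14 coding genes had a promoter peak. Of its 18 peaks, 16 were promoter peaks, and 12 of the 14 genes were promoter-only. Among them is Zfp708, a KRAB protein that binds a retroelement and whose single peak was centred 138 bp inside the gene. The cluster with the most genes, from Zfp84 to Zfp146 on chromosome 7, had 15 coding genes, of which 12 had a promoter peak and 6 were promoter-only. The cluster from Zfp677 to Zfp943 on chromosome 17 had 13 coding genes. A promoter peak was found at 12 of them, and 10 carried their Zfp name in the list, but only 1 was promoter-only, with 29 peaks at the 10 genes. The 4 genes from Zfp872 to Zfp810 on chromosome 9 each had 1 promoter peak and no other. Zfp809, a KRAB protein that silences murine leukaemia virus in embryonic cells, belongs to this cluster, and its peak (chr9:22225594-22226092) lay 131 bp downstream of the start, in an intron of the gene and in a CpG island. The 2 distal-rich cluster genes, Zfp397 and Zfp24, stood in the same cluster of 3 on chromosome 18.

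Chromosome 7 held 80 of the 311 genes and 198 of the 1015 peaks. On chromosome 13, 65.6% of 32 Zfp genes were promoter-only, and on the X chromosome 6 of 7. On chromosome 18 none of 10 was promoter-only and 7 were distal-rich. Of all 311 Zfp genes, 37.3% were promoter-only and 14.8% distal-rich. The sets on the X chromosome and chromosome 18 are small. The shares over all genes of each chromosome were not counted, and no difference between chromosomes was tested.

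Distal-rich genes stood in wide stretches of the genome. A gene's territory is here the stretch nearer to its starts than to those of any other gene, and since each peak was given to the nearest start, a wider territory can gather more peaks. The median territory was 26.2 kb for the promoter-only genes and 114 kb for the distal-rich ones, a ratio of 4.36. Among other genes the same classes had medians of 16.8 and 123 kb, a wider contrast than among Zfp genes. The start of another gene was a median of 17.5 kb away for the first and 56.7 kb for the second, and the genes themselves had a median length of 15.7 and 37.1 kb. Another start lay within 1 kb at 10 of 116 promoter-only genes (8.62%) and 4 of 46 distal-rich ones (8.70%). Both classes were defined by their distal peaks, so the ratio describes them and is no test.

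At the same width, Zfp genes had a lower mean of distal peaks than other genes, except in the widest territories, where their mean was higher. Up to 20 kb, 51 Zfp genes had a mean of 0.667 ± 0.792 distal peaks (SD over genes) and other genes 0.912 ± 1.03. From 20 to 50 kb, 153 Zfp genes had a mean of 1.00 ± 1.33 distal peaks (SD over genes) and other genes 2.25 ± 1.88. From 50 to 100 kb the means were 2.68 ± 2.61 (60 genes) and 4.15 ± 3.27. From 100 to 200 kb they were 5.28 ± 5.69 (29 genes) and 6.80 ± 5.41. Over 200 kb, 18 Zfp genes had 11.4 ± 6.73 and other genes 9.62 ± 9.07. From 20 to 50 kb, 92 cluster genes had 0.674 ± 0.939 distal peaks and 57.6% were promoter-only, while 59 genes alone or in pairs had 1.53 ± 1.67 and 35.6%. From 50 to 100 kb, 20 cluster genes had 1.60 ± 1.64 and 25% were promoter-only, while 40 genes alone or in pairs had 3.23 ± 2.84 and 20%. The lower mean of distal peaks in clusters was thus seen in both ranges, and the larger share of promoter-only genes mainly in the narrower one. None of these differences was tested. Zfp40 was the promoter-only gene with the widest territory, 125 kb, and had 2 peaks centred 91 bp downstream and 504 bp upstream of its start. Zfp516, in contrast, had 6 distal peaks in 34.2 kb, the narrowest territory of a distal-rich gene.

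**Figure D3:**
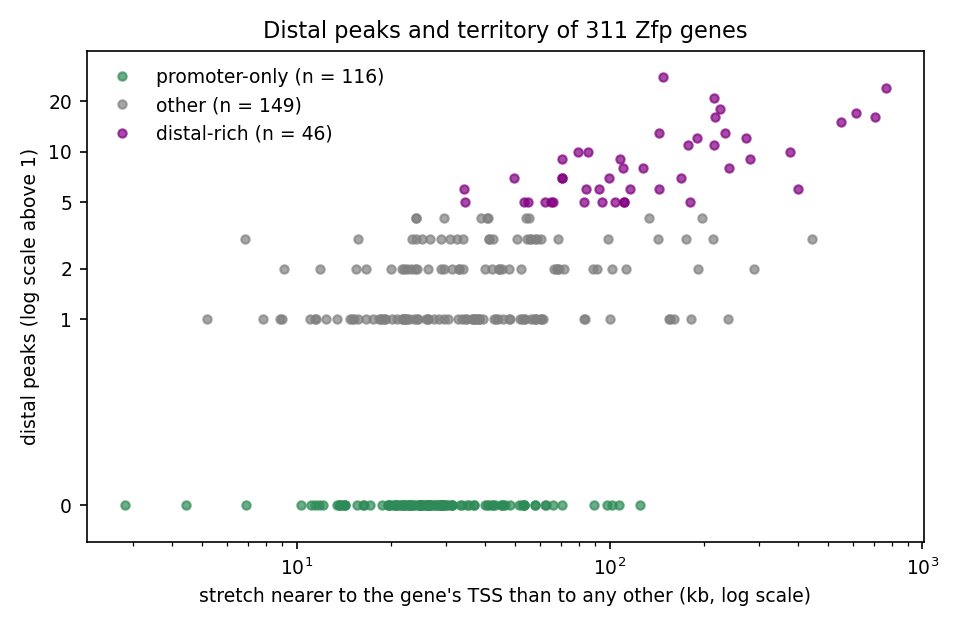
Distal peaks per gene (log scale above 1, with 0 shown) against the stretch nearer to the gene's TSS than to any other (kb, log scale), 1 point per Zfp gene, for promoter-only (green, 116), other (grey, 149) and distal-rich genes (purple, 46). The green points lie at 0 by definition, and purple points spread from 34.2 to 762 kb.

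Zfp217 had the most peaks of any Zfp gene, 29 in a territory of 149 kb, or 19.5 per 100 kb against a median of 5.35 for all Zfp genes and 6.78 for other genes. It encodes a transcriptional corepressor that is amplified in human breast tumours. Its promoter peak (chr2:170131078-170131576) lay 107 bp upstream of the inner start. Of its 28 distal peaks, 21 lay upstream of the nearest start and 7 downstream, and the farthest (chr2:170237879-170238377, intergenic) was 95453 bp upstream. The next most, Zfp462 with 24 peaks, had the widest territory (762 kb) and only 3.15 peaks per 100 kb, below both medians. The 3 Zfp peaks farthest from a TSS were all its own. Zfp462, a zinc finger protein needed in development, had no peak within 1 kb of the listed start, and its farthest peak (chr4:54406058-54406556, intergenic) lay 541638 bp upstream. Its closest peak (chr4:54944978-54945476), in a CpG island 2718 bp upstream of the listed start, was 736 bp from the 5' end that RefSeq gives the gene. By that end the gene would have a promoter peak.

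Zfp704 had 22 peaks, of which 12 lay inside the gene. The promoter peak (chr3:9609882-9610380) was 46 bp upstream of the start. Zfp521, which encodes a cofactor expressed in blood stem cells, had 18 peaks, all inside its 286 kb gene: 1 at the start, centred 42 bp downstream, and 17 in introns, the farthest 280084 bp downstream. Zfp536, a repressor of neuronal differentiation, had 15 of its 16 peaks inside its 456 kb gene. Zfp619, in contrast, had 16 distal peaks that all lay downstream of the start in a territory of 703 kb, and 14 of its 17 peaks were annotated as intergenic. Zfp438 and Zfp386 had most of their distal peaks upstream, 10 of 12 at each. Zfp706, a small gene of 10.4 kb, had 16 distal peaks, of which 13 lay downstream. Zfp644 had 13 distal peaks, 9 of them upstream, and a promoter peak (chr5:106696321-106696819) in the 5' UTR of exon 1, 260 bp from the start. The distal peaks thus lay in introns at Zfp521 and mostly outside the gene at Zfp217, Zfp462, Zfp619 and Zfp706. Per 100 kb of territory, Zfp704, Zfp706, Zfp386 and Zfp644 had 10.2, 8.25, 6.81 and 5.99 peaks, above the Zfp median of 5.35. Zfp438, Zfp521, Zfp536 and Zfp619 had 4.77, 2.94, 2.91 and 2.42, below it.

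**Figure D4:**
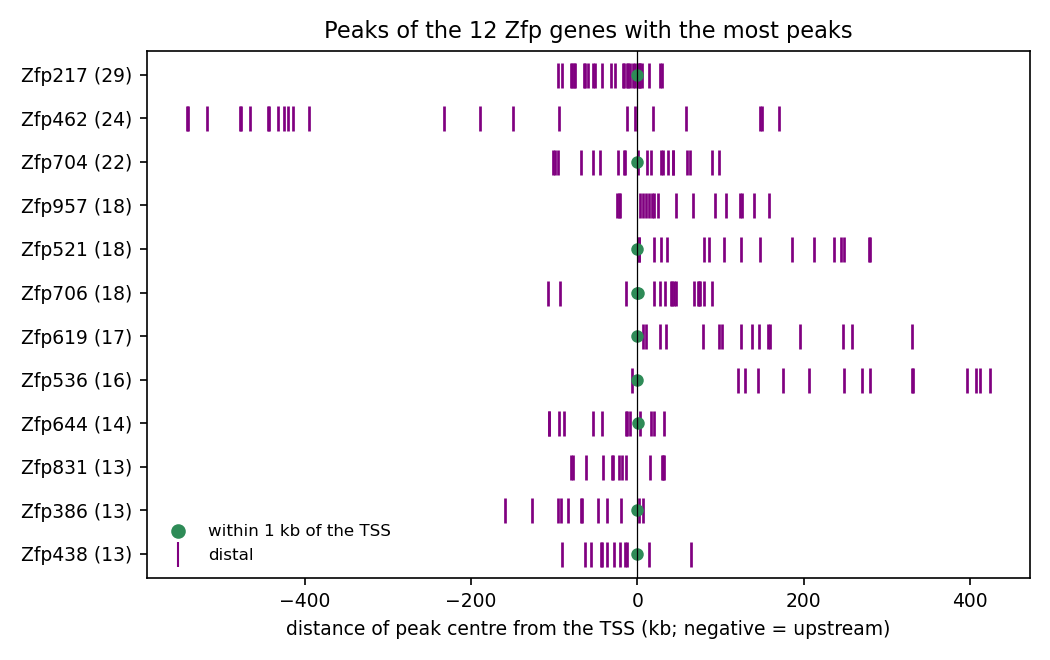
Position of every peak of the 12 Zfp genes with the most peaks, as the distance of its centre from the nearest listed TSS (kb, negative upstream), with promoter peaks as green dots and distal peaks as purple bars, and the number of peaks in brackets. Zfp217 and Zfp386 have 2 listed starts, each set to 0. Zfp462, Zfp957 and Zfp831 show no green dot, and the distal bars of Zfp521 and Zfp619 all lie to the right.

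Zfp957 and Zfp831 also lacked a promoter peak. Zfp957 had 18 distal peaks, of which 15 lay downstream, the closest (chr14:79243377-79243875) 3741 bp from the start in an intron and a DNA transposon. Zfp831 had 13, of which 10 lay inside the gene as RefSeq draws it, although the list gives 9 of the 13 as intergenic. Of all 25 distal-only Zfp genes, 11 had a peak within 1 kb of the 5' end of the RefSeq gene. At 5 of them, Zfp462, Zfp287, Zfp74, Zfp626 and Zfp72, this peak was listed under the gene itself but measured from another start. At 6, Zfp148, Zfp276, Zfp277, Zfp408, Zfp575 and Zfp654, it was listed under a neighbour, such as Dock4 for Zfp277 and Arhgap1 for Zfp408. The remaining 14, among them Zfp503 (closest peak 1196 bp away), Zfp366 (1366 bp), Zfp618 (20795 bp) and Zfp97 (113562 bp), had none. At Zfp791, another of these 14, the only peak overlapped the promoter window of another RefSeq start of the gene. For the 11 genes and Zfp791 the class distal-only thus rests on the start or the neighbour the list used.

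The promoter-only genes with the most peaks had 3 at most. Zfp367, a factor of cell cycle genes, had 3 peaks, centred 951 and 218 bp upstream and 717 bp downstream of its start, the closest at chr13:64153168-64153666. Zfp456 had peaks centred 1 and 700 bp upstream, Zfp444 252 and 881 bp upstream. Zfp524, Zfp526, Zfp169 and Zfp319 had 1 each and narrow territories, from 2.82 kb for Zfp524 to 10.3 kb for Zfp319. Over all promoter-only genes the peak nearest to the start was centred a median of 71 bp downstream. Among the 309 promoter peaks of Zfp genes, 36.2% (30.9 to 41.9) had their centre at or upstream of the start, against 45.0% (44.2 to 45.8) of those of other genes.

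Open promoters of Zfp genes held less G and C than open promoters in general. In the window of 300 bases, the median was 54.7% in 227 Zfp genes with a peak in the window and 61.3% in all 9924 coding genes with one. For the 254 Zfp genes of the list with a sequence it was 54.7%, and for 17492 coding genes with or without a peak it was 56.7%. It was 54.0% in 99 promoter-only and 61.2% in 26 distal-rich genes. The SP/KLF box GGGCGG was found in 45.8% (39.2 to 52.5) of these Zfp windows and in 67.3% (66.3 to 68.2) of the 9924, while it was found in 35.7% of all 32851 promoters of the table, which hold several starts for some genes. With 1 promoter per gene, it was found in 44.9% (38.7 to 51.2) of 254 Zfp genes and 47.2% of 17492 coding genes. These sets are unlike, since all 254 had a peak in the list. A peak lay in the window at 89.4% of the 254 and at 56.7% of the 17492. They therefore do not show whether motif shares differ apart from the presence of a peak. The CCAAT box was found in 49.8% (43.1 to 56.5) of the Zfp windows with a peak, 39.3% (38.3 to 40.3) of the 9924 and 37.4% of all promoters of the table, and with 1 promoter per gene in 46.9% (40.6 to 53.2) of Zfp and 38.9% of coding genes. In the first 3 of these sets, the ETS core CCGGAAG was found in 20.7%, 18.9% and 8.86%. The TATA box TATAAA was found in 5.29%, 6.45% and 13.6%, and the CRE TGACGTCA in 3.52%, 3.37% and 1.79%. The NRF1 core was found in 4.41%, 2.19% and 0.971%, and the YY1 core in 3.08%, 2.30% and 0.852%. Each was searched on both strands without mismatch, and the letters of these motifs differ in G and C, as the windows do, which was not corrected for. Zfp windows thus held fewer SP/KLF boxes and more CCAAT boxes than other open windows, with intervals that do not overlap, and the intervals of the other 5 motifs overlapped.

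Promoter-only and distal-rich genes could not be told apart by these motifs at this number of genes. The 2 sets are also unlike: a peak overlapped the window at 97.0% of the 99 promoter-only and 73.1% of the 26 distal-rich genes. This limit holds for their G and C shares too. The SP/KLF box was found in 43.4% (33.5 to 53.8) of promoter-only and 57.7% (36.9 to 76.6) of distal-rich genes with a sequence, and the CCAAT box in 51.5% (41.3 to 61.7) and 46.2% (26.6 to 66.6). Of the promoters printed above, Zfp367 held 3 CCAAT boxes and 2 SP/KLF boxes, Zfp386 held 2 of each, and Zfp456 held none.

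**Figure D5:**
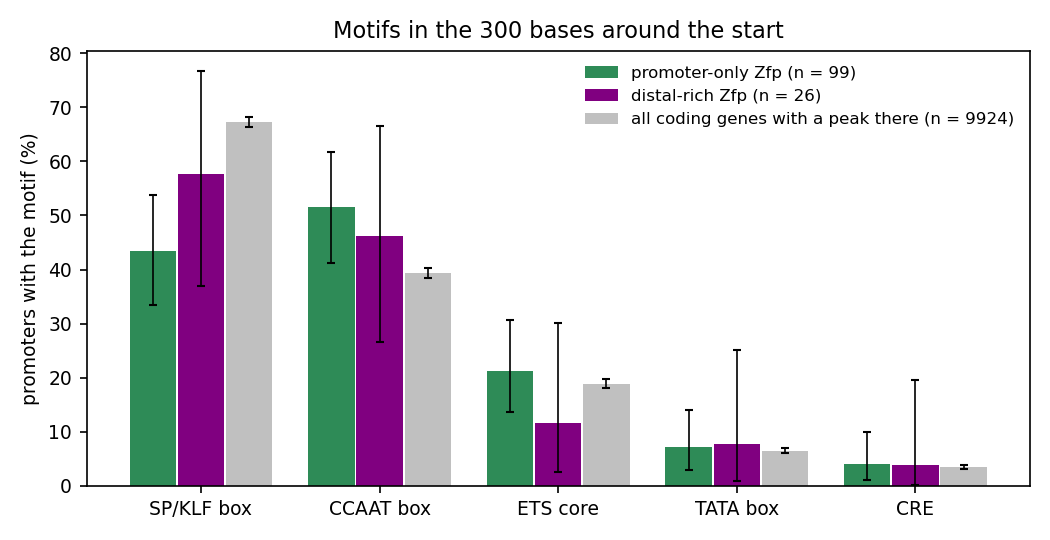
Share of promoters (%) that hold each motif in the window of 300 bases, for 99 promoter-only Zfp genes (green), 26 distal-rich Zfp genes (purple) and 9924 coding genes with a peak in the window (grey), with exact 95% intervals as bars. The green and grey intervals are apart for the SP/KLF box and the CCAAT box, and the purple intervals overlap the green ones for all 5 motifs. A peak lay in the window at 97.0% of the green and 73.1% of the purple genes.

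Some Zfp promoters were alike in sequence. Of all pairs of the 254 Zfp genes with a sequence, 11 differed by no more than 100 edits over the 300 bases, with identities from 66.7% to 94.7%, and both genes of each pair stood on the same chromosome. These pairs hold 18 of the 254 genes: 13 of 99 promoter-only genes, none of 26 distal-rich genes and 5 of the 129 others. At 26 genes, a count of none cannot be told from a share of 18 in 254. Zfp758 and Zfp943 on chromosome 17 were 94.7% alike, and differed in their peaks: Zfp758 had 1 peak, centred 156 bp downstream of its listed start, and Zfp943 had 3, a promoter peak centred 430 bp downstream that does not reach the window, and distal peaks up to 87328 bp away. Zfp442 and Zfp937 on chromosome 2 were 90% alike with 2 peaks and 1, and Zfp429 and Zfp456 on chromosome 13 were 87% alike with 1 peak and 2. Both genes of the last pair were promoter-only.

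A larger share of the distal peaks of Zfp genes than of those of other genes was intergenic. Of 706 such peaks, 60.9% (57.2 to 64.5) were intergenic, against 46.8% of the distal peaks of other genes, and 33.9% lay in introns, against 47.8%. Upstream of the start lay 47.9% (44.1 to 51.6), against 41.8%. An annotated repeat held 22.9% (19.9 to 26.2) of them, against 18.9% (18.6 to 19.2). LTR retroelements, the class that many KRAB zinc finger proteins bind and silence, held 77 of the 706, or 10.9% (8.70 to 13.4), against 7.83% (7.64 to 8.02). Within the LTR class, ERVK elements, which include the IAP elements, held 20 (2.83%, 1.74 to 4.34), against 1.61%. ERVL-MaLR elements held 39 (5.52%, 3.96 to 7.47), against 4.68%.

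The LTR share differed between genes with few and with many distal peaks. Of 267 distal peaks at Zfp genes that were not distal-rich, 45 lay in LTR elements (16.9%, 12.6 to 21.9) and 25 in SINEs (9.36%, 6.15 to 13.5). Of 439 distal peaks at distal-rich genes the numbers were 32 (7.29%, 5.04 to 10.1) and 13 (2.96%, 1.59 to 5.01). Distal peaks of other genes gave 7.83% and 4.91%, so LTR elements at distal-rich genes were near that share. For SINEs, 4.91% lay inside the interval at distal-rich genes and below the interval at the rest. Over all 706 distal Zfp peaks, the SINE share was 5.38% (3.84 to 7.31), with 4.91% inside its interval. In tandem clusters, 16 of 108 distal peaks lay in LTR elements (14.8%, 8.71 to 22.9). At Zfp genes alone or in pairs 61 of 591 did (10.3%, 7.99 to 13.1), and these intervals overlap. The SINE with the most Zfp peaks was B3, with 18 peaks, each at a different gene. Its share among the peaks of other genes was not counted, so this describes the Zfp peaks without a background.

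Genes with known roles in blood or lymphocytes had a median of 3 peaks, against 2 for all Zfp genes and 3 for other genes with a peak. All 14 on the list had a peak, 94 in total, with a range from 2 to 29. None was promoter-only and 5 were distal-rich: Zfp217, Zfp521, Zfp281, Zfp366 and Zfp335. Of all 311 Zfp genes, 37.3% were promoter-only and 14.8% distal-rich, and of other genes with a peak 13.9% and 29.2%. Zfp281, which also regulates pluripotency, had 10 peaks, of which 8 were distal and upstream, as far as 73801 bp. Zfp366 (DC-SCRIPT), a regulator of dendritic cells, had 8 distal peaks. Zfp335, a regulator of T cell maturation, had 6 peaks in 34.4 kb, or 17.4 per 100 kb. Zfp384, whose human counterpart is fused to other genes in acute leukaemia, had 2 peaks, as did Zfp91, Zfp574, Zfp131, Zfp143 and Zfp148, while Zfp423 and Zfp467 had 3 and Zfp318, needed for IgD on B cells, had 5. Of the 14 genes, 12 had a promoter peak, and the others were Zfp148 and Zfp366.

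The 13 developmental regulators without a KRAB box had 144 peaks with a median of 10, a median territory of 191 kb and 10 distal-rich genes. Of these genes Zfp521 and Zfp423 stand on the blood list too. Zfp710 had 11 peaks, 4 of them promoter peaks, the most of any Zfp gene. Zfp503 had 10 peaks and none within 1 kb of its start. Zfp592, Zfp609 and Zfp703 were also distal-rich, with 6, 6 and 8 peaks, while Zfp687, Zfp423 and Zfp827 had 2, 3 and 4. Of the 311 Zfp genes as a whole, 14.8% were distal-rich.

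Genes of imprinting, retroelement silencing and pluripotency had a median of 2 peaks, the same as all Zfp genes. Of 11 names, 9 had a peak, each of the 9 had 1 promoter peak, and only Zfp281 was distal-rich. Of the coding Zfp genes of RefSeq, 87.7% had a peak, but Zfp828 is not among those genes by that name. Zfp57, which protects imprints, had a promoter peak centred 218 bp downstream of its start (chr17:37002494-37002992) and a distal one 5992 bp downstream. Zfp445, which shares that role, had 2 peaks, as did Zfp932 and Zfp961, and Zfp568 and Zfp296 had 3. Zfp809 and Zfp708 were promoter-only, and Zfp42 had no peak. Whether the locus meant by the name Zfp828 had a peak was not examined. Among 9 genes with roles in RNA or cell division, 8 had a peak. Zfp207 (BuGZ), a protein of the mitotic spindle, and Zfp451, a SUMO ligase, were promoter-only. Zfp326, Zfp622 and Zfp277 were distal-rich with 11, 6 and 5 peaks, Zfp330 had 6, Zfp106 had 3 and Zfp346 had 2. Zfp830 had no peak of its own. For comparison with both lists, 92.0% of the 311 Zfp genes had a promoter peak, 37.3% were promoter-only and 14.8% distal-rich. Among other genes with a peak these shares were 67.6%, 13.9% and 29.2%.

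The corepressor genes through which KRAB zinc finger proteins act all had peaks. Of 18, 17 had a promoter peak, 2 were promoter-only and 4 distal-rich, with a median of 3 peaks. Among all other genes with a peak, the median was also 3, and 13.9% were promoter-only and 29.2% distal-rich. The median and the counts in these classes were thus near the background. A promoter peak was present at 67.6% of the other genes, a lower share than among the 18. Trim28 had 3 peaks, Setdb1 had 2, and Atf7ip, a partner of SETDB1, had 16.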

How the data were processed

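ATAC-seq libraries were made from 7 sorted cell types, with 2 libraries each. The deposited list gives 92842 peaks of 499 bp with position, annotation, nearest gene and signed distance in bp to its TSS. Per the submitters' processing notes, HOMER 4.10.2 and the mm10 build were used. The sources used here name neither aligner nor peak caller. The deposited peak score is 0 throughout, so depth per sample is unknown and no comparison of cell types was made.

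Starts were placed from the listed distances. Territories used these starts and those RefSeq starts (GRCm38.p6) that no listed distance contradicted (8422 were dropped). All 311 genes matched RefSeq, 308 of them coding, and 254 had a promoter sequence. Of several windows, one with a peak was used. This choice of window was made after its values had been seen. Starts, territories and counts were tested on simulated data. Python 3.11.15, pandas 2.3.3, numpy 2.4.6 and scipy 1.17.1 were used.

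The members and gene lists were chosen with earlier results of these data known. Named were the 12 genes with the most peaks and with the most distal peaks, 8 promoter-only genes with the most peaks (ties by the smallest territory), the 3 farthest peaks and every list member with a peak. The choice of other genes came after seeing their values. Alternatives were other promoter windows, distal thresholds, name rules and distance limits. Finger counts and KRAB domains were not analysed here.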

Additional observations from a re-analysis of the deposited data

How the results depend on the processing

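No paired analysis was possible because the list carries no value per library and no result comes from a test between samples. The share of Zfp peaks within 1 kb of a TSS, 30.4%, was 26.9% within 500 bp and 20.6% when the annotation class of the list was used in place of distance, which also gave 74 promoter-only genes in place of 116. Distal-rich genes numbered 82 with at least 3 distal peaks and 17 with at least 10, in place of 46, and the ratio of median territories, 4.36, became 8.33 with at least 10, an alternative added after seeing the data. Mean peaks per gene, 3.26, were 1.63 within 10 kb. The share of peaks in repeats, 16.3%, was 22.9% among distal peaks only. These changes follow from the stricter or looser definitions themselves. The other alternatives left each value within its 95% interval or, for counts and the ratio, within 1.5 times. A gene name rests on the nearest listed start, and a merged list shows neither how open a site was nor in which cell type. Depth could not be examined.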
